A study of Mus musculus with 10 samples.

Results

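The genes described here are 10 genes of plasma cells and of antibody structure, all 10 found among the 27179 Entrez genes of the deposited count table by matching Entrez numbers to mouse symbols. They comprise the antibody constant regions Igha, Ighm, Igkc and Iglc1, the joining chain gene Jchain, the chaperone cofactor gene Mzb1, the transcriptional regulators Pou2af1, Prdm1 and Irf4, and the receptor gene Tnfrsf13b. They were measured by RNA sequencing of whole lung in 5 Flox mice (Shh +/+, IRE1α fl/fl) and 5 EpithelialKO mice (Shh Cre/+, IRE1α fl/fl). All 10 mice therefore carried floxed alleles of Ern1, the gene of IRE1α. The groups differed at the Shh locus, which is active in the lung epithelium. There EpithelialKO mice carried a Cre allele in place of a wild-type Shh allele, so loss of IRE1α and the Shh genotype cannot be told apart. Plasma cells descend from blood-forming cells, not from that epithelium. The labels number each mouse separately, and the sources used here do not give age, sex or batch.

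Plasma cells are the antibody-secreting end stage of B cells. IRF4 and BLIMP-1, the product of Prdm1, drive that stage, the coactivator encoded by Pou2af1 works with octamer-binding factors at immunoglobulin promoters, and IRE1α with XBP1 expands the endoplasmic reticulum for secretion. In the airways most locally made antibody is IgA, whose heavy chain constant region is Igha. The joining chain links IgA into dimers and IgM into pentamers, and the polymeric immunoglobulin receptor of epithelial cells, Pigr, then carries these polymers to the airway surface.

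Total counts per mouse lay between 14983829 and 21224412, and antibody gene rows took between 0.0953% and 0.220% of them. Ern1 itself did not separate the groups: its mean was 16.8 ± 5.28 CPM in Flox mice against 17.3 ± 6.52 CPM in EpithelialKO mice (SD, n = 5 each), where CPM is the count scaled to a common library size by TMM. Whole-lung counts summed over the whole gene do not check the genotype labels. Flox mice 4 and 6 stood apart from the other 8 mice in sex-linked genes, with 3949 and 4866 Xist counts against 2 to 61, and with 0 counts summed over 4 Y-linked genes against 2462 to 3575. Xist is the RNA that coats an inactive X. By these counts Flox mice 4 and 6 had the female pattern. The other 8, with all 5 EpithelialKO mice among them, had the male pattern. Comparisons of all 10 mice are therefore unbalanced for sex by this pattern, and its part in them was not tested. Jchain and Igha lay lower in Flox mice 4 and 6 than in the other 8, so each of the 10 genes is given with and without these 2 mice.

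None of the 10 genes differed between the groups past the threshold (edgeR quasi-likelihood test, Benjamini-Hochberg adjusted p of 0.05 over 15301 genes). All 10 had enough counts to be tested, and their adjusted p-values lay between 0.410 and 0.962. Over all genes tested, 0.0392% passed this threshold. At an unadjusted p under 0.05 there were also 0 of the 10, against 12.4% of all genes tested. That count of 0 depended on the setting. By the DESeq2 Wald test 0 passed after adjustment and 1, Pou2af1, had an unadjusted p under 0.05. Several other alternatives also had 1 such gene, which was Pou2af1, Prdm1 or Iglc1. Without Flox mice 4 and 6 it was Pou2af1 (edgeR unadjusted p = 0.0364), 1 of 10 beside 7.68% of all genes in that fit. The groups overlapped in each of the 10, whereas they did not overlap in 3.12% of all genes. Of the 10 fold changes 4 were positive and 6 negative, with a median log2 fold change of -0.11, beside a median of 0.00 over all genes. The median without Flox mice 4 and 6 was -0.15, with 2 positive and 8 negative. In whole lung, fewer cells of a type and less RNA per cell cannot be told apart.

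**Figure D1:**
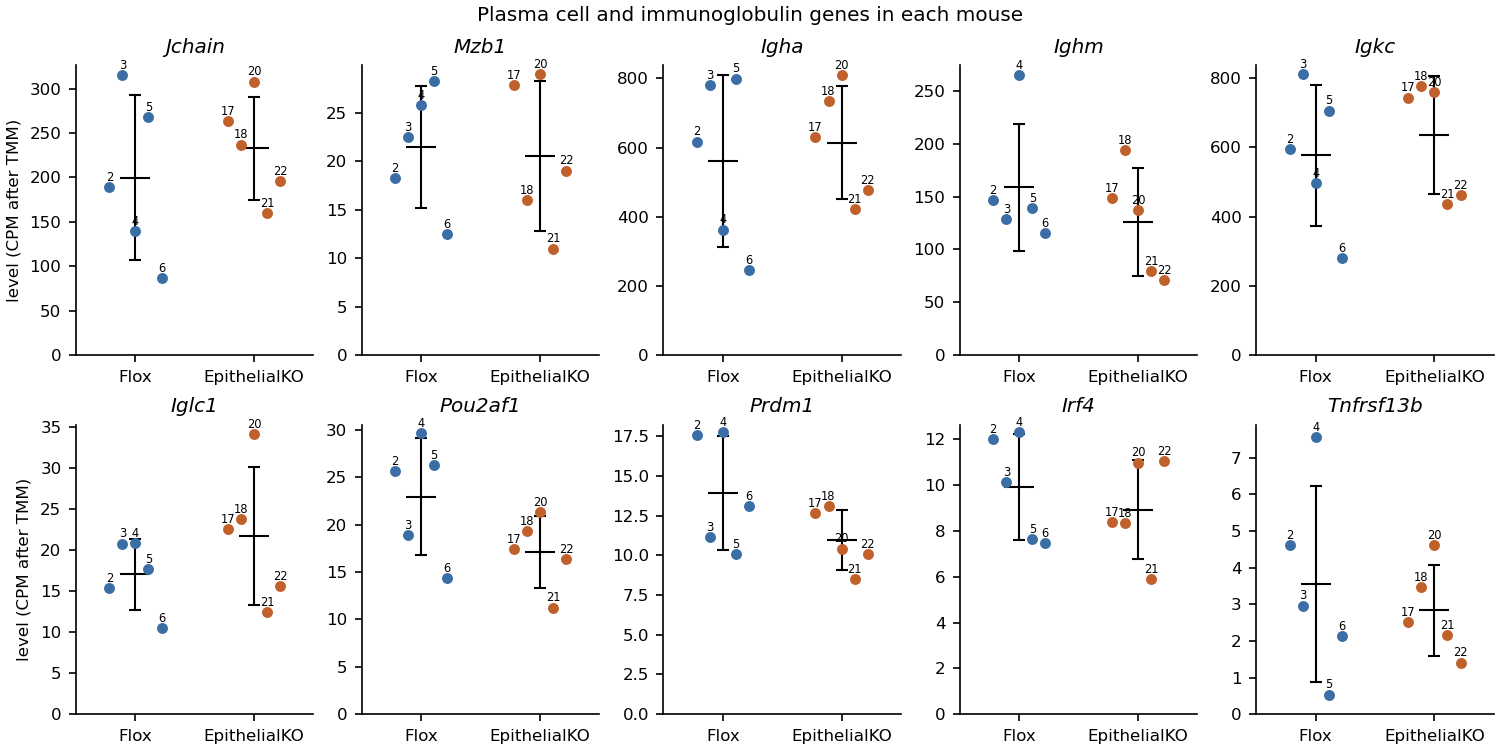
Level of each gene in CPM after TMM scaling (vertical axes, linear and starting at 0) in 5 Flox and 5 EpithelialKO mice. Points are mice with their numbers, and bars are the group mean and SD. The groups overlap in each panel, and Flox mouse 6 is the lowest of the 10 mice for Jchain, Igha, Igkc and Iglc1.

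The largest amounts of RNA came from Igha and Igkc. Igha (Entrez 238447, GRCm38 chromosome 12, 113256204 to 113260236) encodes the constant region of the IgA heavy chain. It stood at 617, 782, 363, 800 and 246 CPM in Flox mice 2, 3, 4, 5 and 6, and at 631, 734, 809, 423 and 476 CPM in EpithelialKO mice 17, 18, 20, 21 and 22. Flox mice 6 and 4 were the lowest of the 10 and lay below each EpithelialKO mouse, while Flox mice 3 and 5 were close to the highest EpithelialKO mouse. EpithelialKO over Flox gave a log2 fold change of 0.13 ± 0.34 (SE, n = 5 each; adjusted p in edgeR = 0.919), with a 95% interval from -0.62 to 0.88. Its sign depended on Flox mouse 6: without that mouse the value was -0.06, and without Flox mice 4 and 6 it was -0.25 (edgeR adjusted p = 0.819).

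Igkc (Entrez 16071, chromosome 6, 70726435 to 70726754) encodes the constant region of the kappa light chain, the light chain of most mouse antibodies. It stood at 594, 811, 496, 707 and 280 CPM in Flox mice 2 to 6 in order, and at 744, 778, 759, 437 and 462 CPM in EpithelialKO mice 17, 18, 20, 21 and 22. Flox mouse 6 was again lowest, and EpithelialKO mice 21 and 22 lay apart from the other 3 of their group. Between the groups this made a log2 fold change of 0.14 ± 0.28 (SE, n = 5 each; adjusted p in edgeR = 0.889, 95% interval -0.48 to 0.75). It was -0.04 without Flox mouse 6 and -0.15 without Flox mice 4 and 6.

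Jchain (Entrez 16069, chromosome 5, 88519809 to 88527897) encodes the joining chain. Its levels were 189, 315, 139, 268 and 86.8 CPM in Flox mice 2 to 6, and 264, 237, 308, 160 and 195 CPM in EpithelialKO mice 17, 18, 20, 21 and 22. The spread was wider in Flox, whose mean was 200 ± 92.9 CPM (SD, n = 5), than in EpithelialKO, at 233 ± 57.7 CPM (SD, n = 5), and Flox mice 6 and 4 were the lowest of all. Jchain thus had a log2 fold change of 0.22 ± 0.34 (SE, n = 5 each; adjusted p in edgeR = 0.840, 95% interval -0.53 to 0.98), and -0.14 without Flox mice 4 and 6.

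Ighm (Entrez 16019, chromosome 12, 113418826 to 113422730) encodes the constant region of the IgM heavy chain, which resting B cells carry on their surface and which plasma cells can secrete. It did not follow Igha. Levels were 147, 129, 265, 139 and 115 CPM in Flox mice 2 to 6, and 149, 195, 137, 79.8 and 70.9 CPM in EpithelialKO mice 17, 18, 20, 21 and 22. Flox mouse 4, among the lowest for Igha, was the highest for Ighm, and EpithelialKO mice 21 and 22 were the lowest. Ighm had a log2 fold change of -0.33 ± 0.32 (SE, n = 5 each; adjusted p in edgeR = 0.734, 95% interval -1.06 to 0.40). It was -0.07 without Flox mouse 4 and -0.13 without Flox mice 4 and 6.

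Iglc1 (Entrez 110785, chromosome 16, 19061752 to 19062071) encodes the first lambda light chain constant region. Its levels ran from 10.5 to 20.8 CPM in Flox and from 12.4 to 34.1 CPM in EpithelialKO, where mouse 20 was highest. The log2 fold change of 0.35 ± 0.25 (SE) did not pass (edgeR adjusted p = 0.611, 95% interval -0.19 to 0.89). It was 0.27 without Flox mice 4 and 6. Iglc1 has relatives in the same locus, Iglc2 and Iglc3, of which only the latter pair are near copies of each other, and the sources used here do not say how reads shared by near copies were counted. The coding parts of Iglc1 and Iglc2 matched at 73.2% of 314 aligned bases, and those of Iglc2 and Iglc3 at 96.5% with a shared run of up to 79 bases. A stretch of 60 coding bases from each (GENCODE M21, GRCm38, minus strand, 5′ to 3′) shows this, with the 16 positions that vary among the 3 genes in capitals. The stretches are chr16:19061892-19061951 for Iglc1, chr16:19198673-19198732 for Iglc2 and chr16:19065502-19065561 for Iglc3.
Iglc1: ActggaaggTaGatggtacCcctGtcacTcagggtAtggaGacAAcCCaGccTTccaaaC
Iglc2: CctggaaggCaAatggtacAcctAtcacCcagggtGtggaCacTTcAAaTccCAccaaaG
Iglc3: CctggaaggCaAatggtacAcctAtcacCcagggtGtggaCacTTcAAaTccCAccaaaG
Iglc2 and Iglc3 are identical here and Iglc1 differs from both at all 16 positions, so values of Iglc2 and Iglc3 are the less certain ones.

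Levels can be set beside each other only per length. Per kilobase of merged GENCODE M21 exons, Igkc had 1086 CPM in Flox mice against 1195 CPM in EpithelialKO mice, Igha at 210 and 230, Ighm at 84.3 and 67.0, Jchain at 79.4 and 92.5, and Iglc1 at 37.5 and 47.7. The regulators were far lower on that scale, from 9.01 CPM per kilobase for Pou2af1 to 2.02 for Irf4 in Flox. The sources used here do not name the annotation behind the counts, and the merged exons include alternative ends, so these are approximate.

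Mzb1 (Entrez 69816) encodes a chaperone cofactor of the endoplasmic reticulum in B and plasma cells that assists IgM assembly. It ran from 12.5 to 28.3 CPM in Flox and from 11.0 to 29.0 CPM in EpithelialKO, ranges that almost coincide. Mzb1 had a log2 fold change of -0.06 ± 0.26 (SE, n = 5 each; adjusted p in edgeR = 0.962, 95% interval -0.63 to 0.51). Its sign was positive in 4 of the 10 fits that left out 1 mouse, those without Flox mouse 4 or 5 or EpithelialKO mouse 18 or 21, with values from 0.02 to 0.10. It was -0.16 without Flox mice 4 and 6.

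Among the regulators, Pou2af1 and Prdm1 had the lowest p-values of the 10 genes. Pou2af1 (Entrez 18985, chromosome 9, 51213690 to 51240079) encodes the coactivator OBF-1 of octamer-binding factors. It stood at 25.7, 18.9, 29.7, 26.3 and 14.3 CPM in Flox mice 2 to 6, and at 17.5, 19.3, 21.3, 11.2 and 16.4 CPM in EpithelialKO mice 17, 18, 20, 21 and 22. All 5 EpithelialKO mice lay below the Flox mean, but Flox mice 3 and 6 lay within their range. Its log2 fold change was -0.42 ± 0.20 (SE; edgeR adjusted p = 0.410), with a 95% interval from -0.85 to 0.00. Without Flox mice 4 and 6 it was -0.46, with a 95% interval from -0.89 to -0.03 that leaves out 0. The edgeR p there was 0.0364 unadjusted and 0.620 adjusted.

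The promoter window of Pou2af1, from 250 bases before to 50 after the RefSeq start (chr9:51213440-51213739, GRCm38.p6, plus strand), is shown because it was the only one of the 5 promoter windows found for these genes in the RefSeq table, those of Jchain, Pou2af1, Prdm1, Irf4 and Tnfrsf13b, to hold any of 3 motifs searched on both strands. The capitals mark TGACGTGG, an element of the type that XBP1 binds.
Pou2af1: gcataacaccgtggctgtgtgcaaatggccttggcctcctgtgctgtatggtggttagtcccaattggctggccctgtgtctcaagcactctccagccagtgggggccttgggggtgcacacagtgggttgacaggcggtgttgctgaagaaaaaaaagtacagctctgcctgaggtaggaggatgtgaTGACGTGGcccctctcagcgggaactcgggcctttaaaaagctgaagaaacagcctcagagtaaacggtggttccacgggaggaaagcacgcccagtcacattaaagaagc
TGACGTGG occurred in 0.676% of all 32851 windows, the octamer ATGCAAAT in 1.74% and in 0 of the 5, and the ETS-IRF composite (GGAA and GAAA with 2 bases between them) in 2.72% and in 0 of the 5. TGACGTGG was thus the only motif of the 3 found in these 5 windows, in Pou2af1 alone. A match is a description of letters only. Xbp1 itself had 236 ± 23.9 CPM in Flox mice against 242 ± 38.8 CPM in EpithelialKO mice (SD, n = 5 each), and gene counts do not show its splicing.

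Prdm1 (Entrez 12142, chromosome 10, 44437174 to 44528558) encodes BLIMP-1, the repressor that shuts off the B cell programme in plasma cells and that T cells and myeloid cells also use. It stood at 17.5, 11.2, 17.8, 10.1 and 13.1 CPM in Flox mice 2 to 6, and at 12.6, 13.1, 10.4, 8.49 and 10.1 CPM in EpithelialKO mice 17, 18, 20, 21 and 22. Flox mice 2 and 4 lay above the other 8 mice, and all 5 EpithelialKO mice lay below the Flox mean. Prdm1 had a log2 fold change of -0.35 ± 0.19 (SE, n = 5 each; adjusted p in edgeR = 0.485, 95% interval -0.76 to 0.06), and -0.24 without Flox mice 4 and 6. Irf4 (Entrez 16364, chromosome 13, 30749233 to 30766981), the factor that initiates plasma cell differentiation, ran from 7.47 to 12.3 CPM in Flox and from 5.89 to 11.0 CPM in EpithelialKO. Its log2 fold change was -0.15 ± 0.22 (SE; edgeR adjusted p = 0.824, 95% interval -0.61 to 0.30), with 3 of 5 EpithelialKO mice below the Flox mean, and was -0.16 without Flox mice 4 and 6.

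Tnfrsf13b (Entrez 57916, chromosome 11, 61126283 to 61153170) encodes TACI, a receptor for the survival ligands BAFF and APRIL. It had the lowest counts of the 10 genes, from 8 to 139 per mouse, and the widest spread, from 0.533 CPM in Flox mouse 5 to 7.55 CPM in Flox mouse 4. EpithelialKO mice ran from 1.41 to 4.62 CPM, inside the Flox range. Tnfrsf13b had a log2 fold change of -0.34 ± 0.51 (SE, n = 5 each; adjusted p in edgeR = 0.835, 95% interval -1.41 to 0.74), so at this depth a change of more than 2-fold in the lower direction lies within the interval. The sign turned without Flox mouse 4, to 0.13, and without Flox mice 4 and 6, to 0.05.

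**Figure D2:**
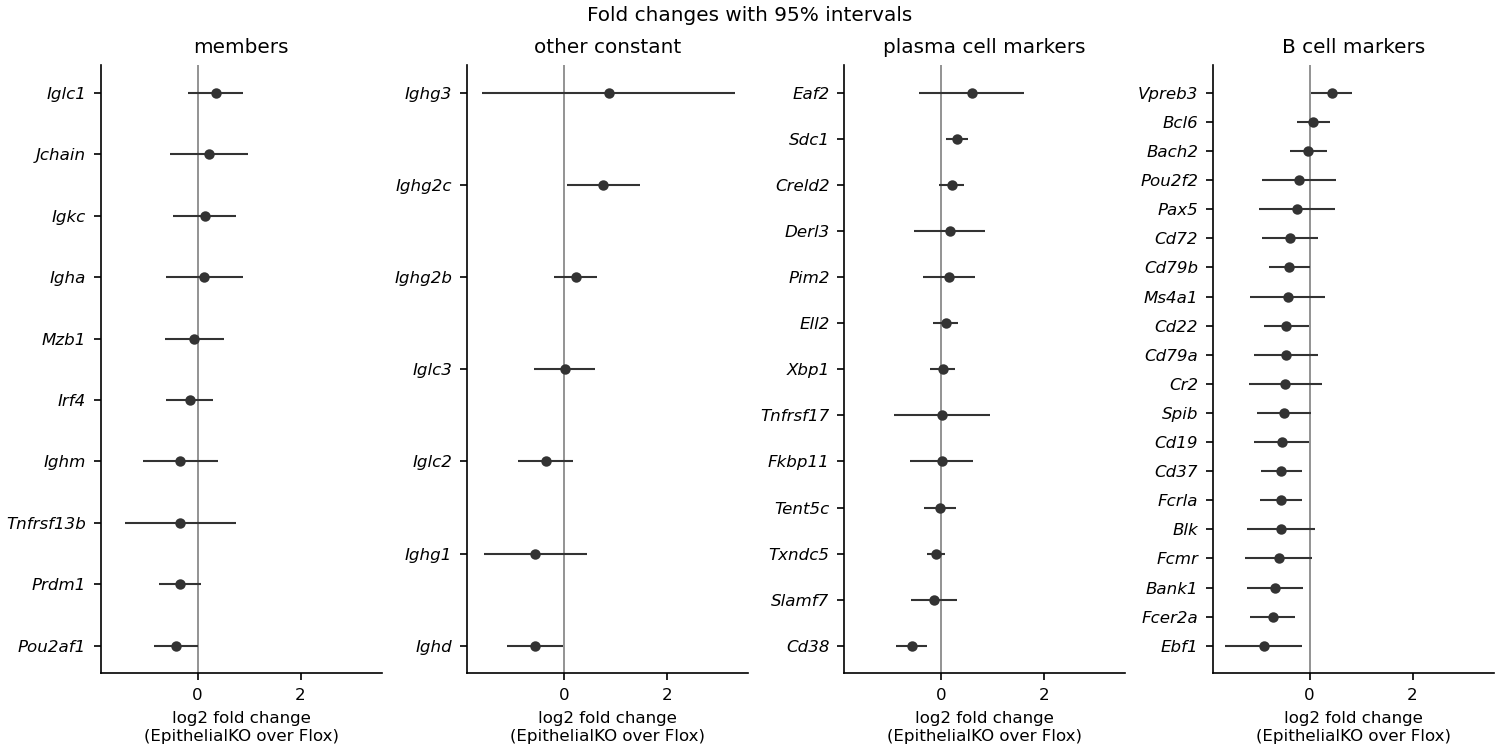
Log2 fold changes of EpithelialKO over Flox (horizontal axes) with 95% intervals from edgeR, for the 10 genes (panel "members"), other antibody constant genes, plasma cell markers and B cell markers with enough counts to be tested. Each of the 10 intervals of the members crosses 0, and 18 of 20 B cell markers lie below 0.

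The other antibody constant genes varied in both directions. Of the 8 found, 7 were tested and 0 passed, with 4 fold changes positive and 3 negative (median log2 fold change 0.02). At an unadjusted edgeR p under 0.05 there were 2 of the 7, 1 positive and 1 negative, beside 12.4% of all genes tested. Without Flox mice 4 and 6 there were 0 of 7, beside 7.68% of all genes in that fit. Ighg2c, one of the IgG constant genes, had 5.14 ± 1.18 CPM in Flox mice against 8.78 ± 5.20 CPM in EpithelialKO mice (SD, n = 5 each), and its log2 fold change was 0.77 ± 0.34 (SE, edgeR adjusted p = 0.359). EpithelialKO mouse 18 stood at 17.4 CPM, above the other 9 mice, and without it the log2 fold change was 0.36. Ighd, the IgD constant gene of naive B cells, stood at 35.5 ± 14.4 and 24.2 ± 6.38 CPM (log2 fold change -0.56 ± 0.25, edgeR adjusted p = 0.394). Flox mouse 4 was highest at 59.2 CPM. The log2 fold change was -0.29 without that mouse and -0.30 without Flox mice 4 and 6. Iglc2 had -0.35 ± 0.25 and Ighg2b 0.23 ± 0.20, neither past the threshold. Ighe, the IgE constant gene, had 0 to 9 counts per mouse and was not tested.

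Within each library, the mix of antibody classes was compared without any scaling between mice. Igha took 75.2, 81.7, 51.3, 81.7 and 59.9% of heavy chain constant counts in Flox mice 2 to 6, out of 8096 to 17754 such counts, and 75.7, 74.2, 80.7, 79.6 and 81.5% in EpithelialKO mice 17, 18, 20, 21 and 22, out of 9820 to 18012. These are shares of counts, not per length. Flox mice 4 and 6 lay far below the other 8, whose range was 74.2 to 81.7%. Counting error was small beside that gap, since the 95% Wilson interval was 50.5 to 52.2% in Flox mouse 4 and 58.8 to 60.9% in Flox mouse 6, and it covers counting error only. The means were 69.9 ± 13.7% in Flox and 78.3 ± 3.21% in EpithelialKO (SD, n = 5 each), and the difference of 8.37 percentage points did not pass an exact two-sided permutation test (p = 0.341, adjusted p = 0.556 over 5 such tests). Without Flox mice 4 and 6 the difference was -1.19 percentage points.

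In the same 2 mice the share not taken by Igha went mostly to Ighm, which took 37.5 and 28.1% of heavy chain constant counts against 12.1 to 19.7% in the other 8. A larger share is not a higher level. Ighm stood at 265 CPM in Flox mouse 4, the highest of all mice, but at 115 CPM in Flox mouse 6, the lowest of the Flox mice. The 4 IgG genes together took 1.73 to 4.83% in Flox and 1.99 to 3.49% in EpithelialKO. In Flox mouse 4 the levels of the B cell markers were also the highest, summing to 696 CPM over 20 genes against 257 to 434 CPM in the 8 other mice, but in Flox mouse 6 they summed to 357 CPM, within that range. Whether the sex-linked difference has a part in these values was not tested.

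Kappa and lambda shares differed little. Igkc took 86.3 to 92.3% of light chain constant counts in Flox and 89.1 to 93.0% in EpithelialKO, with means of 90.3 ± 2.59% and 91.7 ± 1.50% (SD, n = 5 each; exact permutation p = 0.333, adjusted p = 0.556). Flox mouse 4 was the lowest. The ratio of Jchain to Ms4a1, which encodes the B cell surface protein CD20 that plasma cells lose, sets antibody-secreting against B cell RNA. Its log2 value was 2.65 ± 1.13 in Flox and 3.26 ± 0.22 in EpithelialKO (SD, n = 5 each; exact permutation p = 0.294, adjusted p = 0.556). It was 1.05 and 2.12 in Flox mice 4 and 6 and 2.66 to 3.76 in the other 8, and the difference of 0.61 became -0.11 without those 2 mice.

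**Figure D3:**
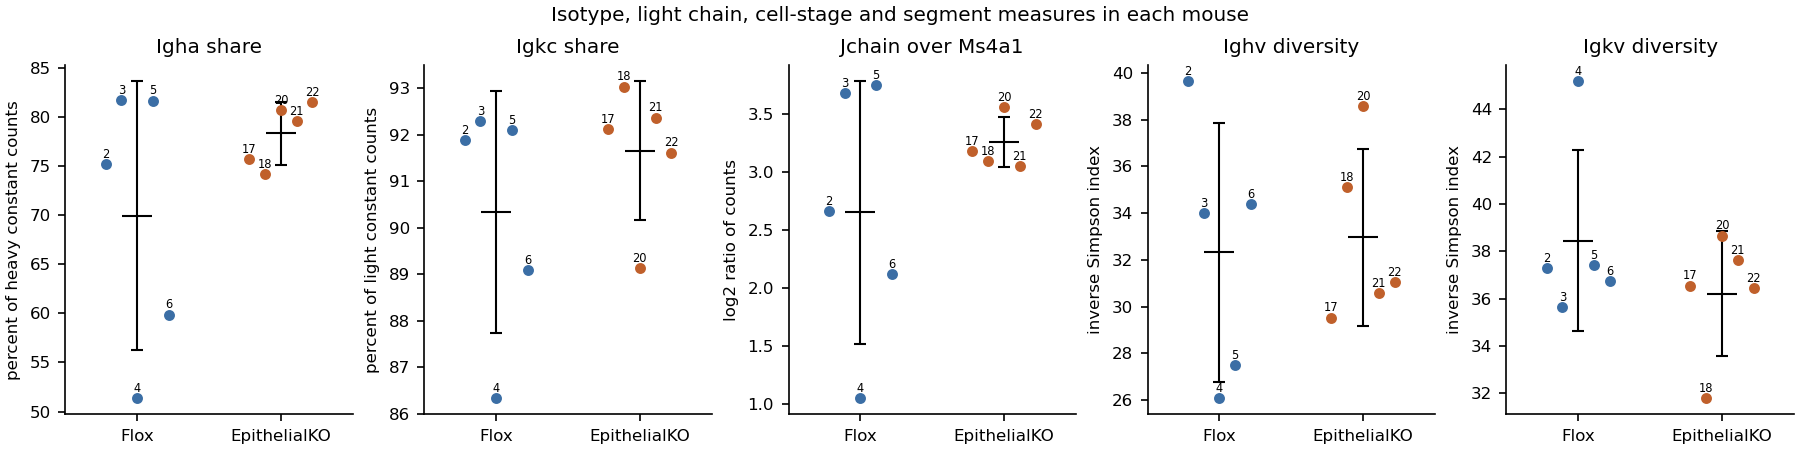
Per mouse, from left to right, the Igha share of heavy chain constant counts and the Igkc share of light chain constant counts (percent), the log2 ratio of Jchain to Ms4a1 counts, and the inverse Simpson index of Ighv and of Igkv segment counts. Points are numbered mice and bars are the mean and SD of 5 mice, and axes do not start at 0. Flox mice 4 and 6 lie below the other 8 in the first 3 panels. In the second panel Flox mouse 6 (89.08%) is barely below EpithelialKO mouse 20 (89.14%).

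The variable segments, which make up the antigen-binding part of each chain, were spread over many genes in each mouse. Of 120 Ighv rows 98 had any count, and 28 had counts in all 10 mice; of 103 Igkv rows 97 had any count. The leading Ighv segment took 6.06 to 13.9% of Ighv counts, and 5 different segments led in the 10 mice. Ighv9-3 was the most abundant (8.36% of the Ighv counts pooled over mice, and 8.14% as the mean of the shares per mouse). In pooled counts Ighv1-53, Ighv1-64, Ighv3-6 and Ighv1-26 followed at 3.91 to 3.51%, but mice differed in depth and use: as a mean of shares Ighv1-64 (4.28%) came before Ighv1-53 (3.92%), and Ighv1-26 had 0 counts in Flox mouse 5. Among kappa segments Igkv1-117 and Igkv10-96 led with 5.99 and 5.78% of pooled Igkv counts (5.59 and 5.64% as means of shares, the reverse order), followed by Igkv6-15, Igkv1-135 and 1 more segment at 4.40 to 3.83%. Related segments share sequence, and reads of rearranged and mutated segments may map to a neighbour, so single-segment values are uncertain.

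Segment diversity was compared with the inverse Simpson index, the number of equally used segments that would give the same evenness. For Ighv it was 32.3 ± 5.55 in Flox and 33.0 ± 3.79 in EpithelialKO (SD, n = 5 each; exact permutation p = 0.841, adjusted p = 0.841), on 640 to 2043 counts per mouse. For Igkv it was 38.5 ± 3.83 and 36.2 ± 2.64 (SD, n = 5 each; exact permutation p = 0.444, adjusted p = 0.556), on 1708 to 4667 counts. Neither difference exceeded the spread between mice. Of 42 Ighv and 65 Igkv segments tested singly, 0 passed in edgeR, with 1 and 5 (2.38 and 7.69%) at an unadjusted p under 0.05, beside 12.4% of all genes tested.

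Across the 10 mice, Jchain, Igha and Igkc moved together. On log2 CPM, Pearson's r was 0.97 for Jchain with Igha (Spearman's rho 0.94; permutation p = 4e-05, adjusted p = 0.0018 over 45 pairs; permutation adjusted p for rho 0.00855). It was 0.95 for Igha with Igkc (rho 0.83) and 0.94 for Jchain with Igkc (rho 0.85), with permutation adjusted p-values of 0.00540 and 0.00517 for r, and 0.0732 and 0.0686 for rho. The 2 mice farthest from the median of Jchain and of Igha were Flox mice 4 and 6, and without them r was 0.88, 0.93 and 0.89 for these 3 pairs. Within the groups r lay between 0.89 and 0.98, over 5 mice each. The proportion between the products was also narrow: each mouse had 30.7 to 41.8 Jchain counts per 100 Igha counts, while Igha itself varied 3.29-fold.

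Igkc and Iglc1 were the remaining pair past the threshold, with r = 0.81 (rho 0.78; permutation adjusted p = 0.0420 for r and 0.116 for rho), but r was 0.57 without Flox mouse 6 and EpithelialKO mouse 21, the 2 mice farthest from the median of Igkc. It was 0.79 without Flox mice 4 and 6, and 0.81 within Flox and 0.90 within EpithelialKO, over 5 mice each. Of 45 pairs, 4 passed by r and 1 by rho. Ighm was not among them: its r was 0.15 with Igha and 0.07 with Jchain, against 0.74 with Pou2af1 (permutation adjusted p = 0.0857). Without Flox mice 4 and 6, r of Ighm was 0.79 with Igha and 0.54 with Jchain. Its r with Igha was -0.16 within Flox and 0.86 within EpithelialKO, over 5 mice each. Prdm1 had r = -0.31 with Jchain (permutation adjusted p = 0.566), and 0.02 without Flox mice 4 and 6. For this pair r was -0.48 within Flox and 0.64 within EpithelialKO. All values share the libraries' scaling.

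**Figure D4:**
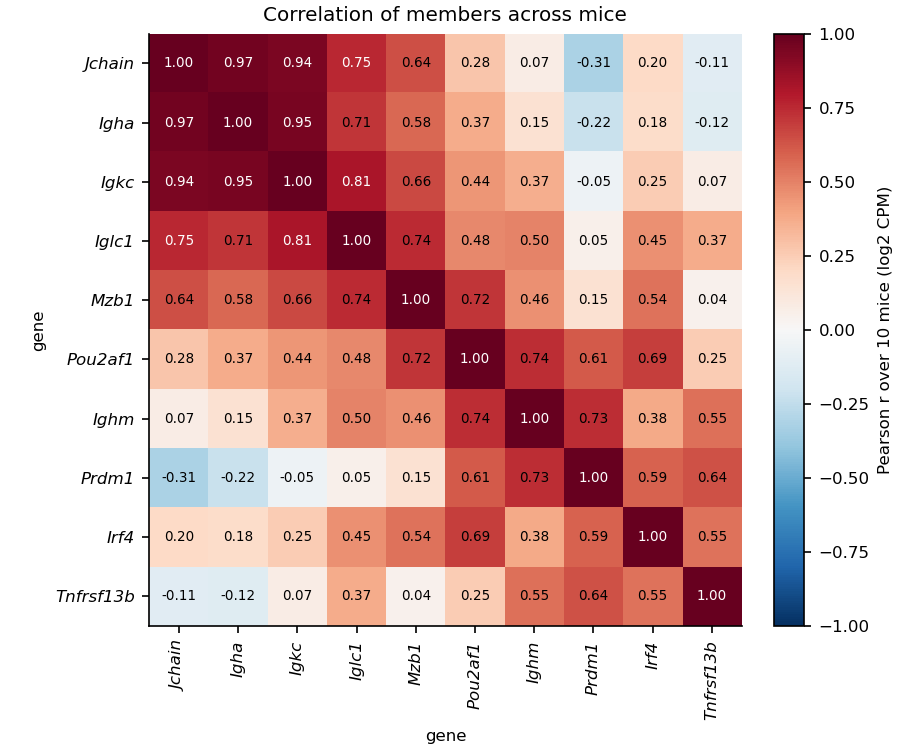
Pearson's r between the 10 genes over 10 mice on log2 CPM, as colour (red positive, blue negative) and number, with genes on both axes. Jchain, Igha and Igkc form a block at 0.94 to 0.97, and Ighm has 0.07 to 0.37 with those 3.

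Over all tested genes, Igha was most like Jchain, followed by the kinase gene Alpk1 (r = 0.95), Igkc (0.94), and Fau and 1700001L19Rik (0.93 each). The genes most like Pou2af1 were Blk, a B cell kinase (r = 0.92), Doc2g (0.92), Siglecg, a B cell inhibitory receptor (0.92), A930006K02Rik (0.91) and Zfp944 (0.89). Those most like Irf4 were Cnbd2, Ostc, Cd1d1, Lrrc25 and Il27ra (0.92 to 0.88), and those most like Prdm1 were Runx2, Zer1, Plscr1, Elf2 and Tcf20 (0.95 to 0.92). Each r is over the same 10 mice and was chosen as the highest of 15301 genes, so it is a description. Among the 20 genes most like Jchain 2 were antibody genes, and among the 20 most like each of Pou2af1, Irf4 and Prdm1 there were 0. The 20 most like Pou2af1 held 2 of the B cell markers.

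Genes that accompany the plasma cell state were counted in the same fit. Of 14 plasma cell markers 13 were tested and 0 passed, with 9 positive and 4 negative and a median log2 fold change of 0.04. An unadjusted edgeR p under 0.05 was seen in 2 of the 13, 1 positive and 1 negative, beside 12.4% of all genes tested. Tnfrsf17, the gene of the plasma cell receptor BCMA, had 2.48 ± 1.21 CPM in Flox mice against 2.53 ± 1.31 CPM in EpithelialKO (SD, n = 5 each). By the lowest p, the list was led by Cd38 (46.3 to 31.1 CPM, log2 fold change -0.57 ± 0.14, edgeR adjusted p = 0.123) and Sdc1 (150 to 186 CPM, 0.31 ± 0.10, edgeR adjusted p = 0.209), a surface enzyme and a syndecan that lung cells other than plasma cells also express. Creld2 had 0.21 ± 0.12 and Eaf2 0.59 ± 0.48. Without Flox mice 4 and 6, 6 were positive and 7 negative.

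Genes of plasma cell survival, homing and IgA transport had 13 of 18 members tested and 0 past the threshold, with 3 positive and 10 negative (median log2 fold change -0.19, and -0.16 without Flox mice 4 and 6). Of these 13, 3 had an unadjusted edgeR p under 0.05, all negative, beside 12.4% of all genes tested. Without Flox mice 4 and 6 there were 0 of 15, beside 7.68% of all genes in that fit. Itga4, an integrin chain that holds plasma cells in tissue, had -0.61 ± 0.18 (SE; edgeR adjusted p = 0.185), and -0.28 without those mice. The chemokine Cxcl12 had -0.41 ± 0.14 (edgeR adjusted p = 0.244), its receptor Cxcr4 -0.24 ± 0.14, and Tnfsf13b, the gene of BAFF, -0.46 ± 0.18 (18.4 to 13.3 CPM, edgeR adjusted p = 0.298). Without Flox mice 4 and 6 the values were -0.20 for Cxcl12, -0.30 for Cxcr4 and -0.46 for Tnfsf13b. Pigr, named here outside the rule because it connects IgA with the epithelium that lacks IRE1α by label, had 75.1 ± 13.5 CPM in Flox mice against 77.5 ± 19.9 CPM in EpithelialKO mice (SD, n = 5 each), and its log2 fold change was 0.05 ± 0.16 (SE, edgeR adjusted p = 0.946).

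Markers of other cells that use these genes were measured beside them. B cell markers were negative in 18 of 20, with a median log2 fold change of -0.47, 0 past the threshold and 8, of which 7 were negative, at an unadjusted edgeR p under 0.05 (12.4% of all genes tested). The positive one was Vpreb3 (0.43 ± 0.19, edgeR adjusted p = 0.364), named after its values were seen. Fcer2a had -0.72 ± 0.21 (SE; edgeR adjusted p = 0.166), Fcrla -0.55 ± 0.19, Cd37 -0.55 ± 0.19 and Bank1 -0.67 ± 0.25, and without Flox mice 4 and 6 the median was -0.30 with 17 of 20 negative and 2 at an unadjusted p under 0.05 (7.68% of all genes in that fit). Their summed level was 357 to 696 CPM in Flox and 257 to 425 CPM in EpithelialKO. Pou2af1, Irf4 and Ighm are expressed by B cells too, and the part of B cell RNA in their values was not tested.

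T cell markers were negative in 13 of 13 tested (median log2 fold change -0.20, 0 past the threshold), led by Cd4 at -0.43 ± 0.26, Cd27 at -0.42 ± 0.29, Cd5 at -0.42 ± 0.29 and Cd8b1 at -0.25 ± 0.20. Without Flox mice 4 and 6 the median was 0.03 with 4 of 13 negative, so the count depended on those mice. Their summed level was 163 to 290 CPM in Flox and 151 to 253 CPM in EpithelialKO. Plasmacytoid dendritic cell markers were negative in 6 of 9 tested (median -0.25, 0 past the threshold), led by Bst2 at -0.31 ± 0.10, Tcf4 at -0.30 ± 0.12, Pacsin1 at -0.83 ± 0.61 and Runx2 at -0.25 ± 0.20, with sums of 299 to 359 CPM and 248 to 298 CPM. The median was -0.16 with 7 of 10 negative without Flox mice 4 and 6, and Pacsin1 then had -0.17. Most of that sum was Bst2 and Tcf4, which other lung cells also express, and Siglech, the defining marker, stood at 5.91 ± 2.59 and 5.06 ± 1.28 CPM (SD, n = 5 each). Dendritic cell and macrophage markers were negative in 12 of 16 (median -0.13, 0 past the threshold), led by Marco at -0.74 ± 0.14 (edgeR adjusted p = 0.0598), C1qc at -0.39 ± 0.16, Clec9a at -0.45 ± 0.21 and C1qa at -0.27 ± 0.14, with sums of 760 to 1393 CPM in Flox and 953 to 1953 CPM in EpithelialKO. The positive ones, named after their values were seen, were the macrophage genes Chil3 (0.33), Siglecf (0.16), Adgre1 (0.14) and Mrc1 (0.12). Chil3 made up 54.8 to 74.6% of the sum, and the other 15 genes summed to 343 to 479 CPM in Flox and 335 to 496 CPM in EpithelialKO. The median of all 16 was -0.04 with 9 of 16 negative when Flox mice 4 and 6 were left out. At an unadjusted edgeR p under 0.05 there were 0 of 13 T cell markers and 2 of 9 plasmacytoid dendritic cell markers. There were also 2 of 16 dendritic cell and macrophage markers, beside 12.4% of all genes tested. No marker on these lists was at 0 in all mice. The part of these cells in the Prdm1 and Irf4 values was not tested.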

How the data were processed

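Polyadenylated RNA of whole lung was sequenced from 10 mice. The authors deposited read counts, 1 whole number per Entrez gene and mouse, which the values show to be unscaled. Cutadapt, HISAT2 and the build GRCm38 are named in the submitters' processing notes; the sources used here do not name versions, the counting tool, its annotation, its strand setting or how reads mapping to several genes were treated. RefSeq's GRCm38 gene table gave symbols for 25275 of 27179 genes. No 2 libraries agreed within counting noise (chi-square over its degrees of freedom at least 17.0).

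Genes were filtered with filterByExpr (15301 left), TMM-scaled and compared by edgeR 4.0.16's quasi-likelihood F test in R 4.3.3 (robust, group as the only term), Benjamini-Hochberg adjusted, threshold 0.05. The edgeR fit was tested on simulated data. Single values per mouse were compared by exact two-sided permutation tests, whose smallest possible p is 0.00794, with 0.5 added to counts in the Jchain ratio. Correlations used log2 CPM (prior count 2) and 100000 resamples. Members and lists were chosen with earlier results of these data known. The rule for named genes took all 10 members, up to 4 genes of lowest p per list, the 5 most abundant Ighv and Igkv segments, and the 5 genes most correlated with Jchain, Pou2af1, Irf4 and Prdm1; others are said to lie outside it. Tnfrsf17, Siglech and Xbp1 were added as reference values. The motifs, the ratios between constant genes, the values of list genes without single mice and the segment ranks by mean share were chosen after seeing the data. Alternatives were DESeq2 1.42.0 (size factors, Wald test), upper quartile scaling, limma 3.58.1 voom with sample weights, other count filters, scaling without antibody rows, leaving out each mouse, and leaving out Flox mice 4 and 6. No promoter window was used for the constant genes or Mzb1.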

Additional observations from a re-analysis of the deposited data

Results flagged for a closer look

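Of 30 groups of 5 mice checked for a single distant value (10 genes and 5 within-library measures in each group), 2 held one by Dixon's 95% criterion, and chance alone flags about 1 in 20 groups. Ighm in Flox mouse 4 stood at 265 CPM, against 115 to 147 CPM in the other 4 Flox mice. The Igkv segment diversity of Flox mouse 4 was 45.2, against 35.6 to 37.4 in the other 4 Flox mice.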

How the results depend on the processing

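No paired analysis was made because the labels give no pairing of mice between the groups. The count of the 10 genes past the threshold was 0 in all 18 alternatives and adjusted p-values stayed at or above 0.267, where DESeq2 gave no adjusted p for Tnfrsf13b; over all values and their alternatives 240 kept direction and side of the threshold and 19 turned sign. Without Flox mice 4 and 6 the sign turned for the log2 fold changes of Jchain (-0.14), Igha (-0.25), Igkc (-0.15) and Tnfrsf13b (0.051), the Igha share (-1.19 percentage points), the Igkc share (-0.43 percentage points), the Jchain to Ms4a1 ratio (-0.11) and Ighv diversity (-0.75). Ighv diversity also turned to -0.0085 with the exponential of the Shannon entropy, and the cause of these turns was not tested. Limma-voom with sample weights gave 0.46 for Jchain, 0.39 for Igha, 0.28 for Igkc and -0.25 for Irf4, each over 1.5 times the edgeR value and none past the threshold. Over the fits that left out 1 mouse, log2 fold changes ranged from 0.03 to 0.45 for Jchain, -0.22 to 0.10 for Mzb1, -0.059 (without Flox mouse 6) to 0.29 for Igha, -0.54 to -0.07 for Ighm, -0.036 (without Flox mouse 6) to 0.29 for Igkc, 0.13 to 0.50 for Iglc1, -0.55 to -0.30 for Pou2af1, -0.45 to -0.25 for Prdm1, -0.24 to -0.03 for Irf4 and -0.61 to 0.13 for Tnfrsf13b. In those fits the Igha share ranged from 3.72 to 11.3 and the Igkc share from 0.32 to 1.95 percentage points, the Jchain to Ms4a1 ratio from 0.21 to 0.88, Igkv diversity from -2.95 to -0.56 and Ighv diversity from -0.92 to 2.47. The lowest Ighv values came without Flox mouse 4 or 5 (-0.56) or EpithelialKO mouse 20 (-0.76). Genes called over the whole table ranged from 0 to 279, the latter by DESeq2, against 6. The number of mice limits precision: the 95% intervals of Igha and Iglc1, from -0.62 to 0.88 and from -0.19 to 0.89, leave room for changes in either direction.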

Other observations

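Among the lambda constant genes, Iglc1 had 0.661, 0.724, 0.658, 0.732 and 0.814 counts per Iglc2 count in Flox mice 2 to 6, and 0.964, 1.42, 1.23, 1.07 and 1.02 in EpithelialKO mice 17, 18, 20, 21 and 22, so the groups did not overlap. The log2 difference of 0.66 was 0.68 without Flox mice 4 and 6. This ratio was picked after the values were seen, from 36 ratios between the 9 constant genes with at least 50 counts in each mouse, 2 of which did not overlap. Its exact two-sided permutation p was the smallest possible, 0.00794, and its adjusted p over the 36 was 0.143, so it did not pass. The other ratio was Ighg2c over Iglc2, at 0.162 to 0.275 in Flox and 0.288 to 1.04 in EpithelialKO (exact permutation adjusted p = 0.143). Both contain Iglc2, whose reads may be shared with Iglc3.

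The lambda variable segments were all lower in mean level in EpithelialKO without passing the threshold. Iglv1 stood at 18.4 ± 6.05 and 15.6 ± 6.78 CPM, Iglv3 at 4.34 ± 1.26 and 2.97 ± 1.51 CPM, and Iglv2 at 3.95 ± 3.04 and 2.29 ± 0.75 CPM in Flox and EpithelialKO (SD, n = 5 each; lowest edgeR adjusted p = 0.491). Iglv2 reached 9.13 CPM in Flox mouse 4, the highest of the 10 mice.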
